A study of Mus musculus with 18 samples.

Results

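The genes described here are 9 that hold CD4+ T cells in the naive state and steer them through the lymphoid organs. They are the transcription factor genes Tcf7, Lef1, Satb1, Bach2, Foxo1 and Foxp1 and the receptor genes Il7r, Ccr7 and S1pr1. They were picked by name, with no cut on their values but with earlier results of these data known. They make up 9 of the 37991 genes counted in the study. All 9 were matched by Ensembl identifier, and all 9 passed the filter on low counts that left 17240 genes to be tested.

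RNA sequencing (RNA-seq) was carried out on CD4 T cells enriched by negative selection from the spleens of Tg4-H2u mice, with 3 replicates in each of 6 groups. All groups came from mice that carry a transgenic T cell receptor (TCR) for an N-terminal peptide of myelin basic protein, were male or female and were 6 to 12 weeks old. The receptor chain is present on over 90% of the CD4 T cells, so the repertoire is skewed to a single chain and is not a normal one. The comparisons ask how tolerance changes the cells at rest and how it changes their answer to antigen (Ag).

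Tolerized mice had received 7 subcutaneous injections of the 4Y variant of the peptide, in doses that rose from 0.08 to 80 µg, and control mice had received PBS by the same scheme. The control cells are called naive here, although they are a mixed and only mainly naive population. N0 and T0 are the cells of control and tolerized mice given a last injection of PBS, and NAg and TAg those of mice given 80 µg of 4Y peptide, each taken 2 h later. NPI and TPI are the cells of control and tolerized mice treated in culture for 2 h with 20 ng/ml of the phorbol ester PMA and 2 µM of the calcium ionophore A23187 (together PI). PI acts downstream of the TCR. Cells kept in culture for the same time without PI were not analysed here, so PI and culture cannot be told apart.

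A naive T cell is kept quiescent and long-lived by a set of transcription factors and by IL-7, and it recirculates through the lymphoid organs. CCR7 guides entry into lymph nodes along the chemokines CCL19 and CCL21, and S1PR1 guides exit towards sphingosine-1-phosphate in blood and lymph. After TCR engagement T cells stop recirculating for a while, and much of the naive program is turned down in cells that become effectors. TCF1 (from Tcf7) and LEF1 are related HMG box factors, FOXO1 drives transcription of Il7r, Ccr7 and Klf2, and CD69, a surface protein of freshly activated T cells, binds S1PR1 and takes it off the membrane.

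In the genome build of the files (mm9, NCBIM37), Tcf7 is ENSMUSG00000000782, chr11:52065873-52096681, minus strand, Lef1 is ENSMUSG00000027985, chr3:130813389-130927274, plus strand and Satb1 is ENSMUSG00000023927, chr17:51875512-51972615, minus strand. Bach2 is ENSMUSG00000040270, chr4:32325779-32673083, plus strand, Foxo1 is ENSMUSG00000044167, chr3:52072259-52154031, plus strand and Foxp1 is ENSMUSG00000030067, chr6:98875332-99216526, minus strand. Il7r is ENSMUSG00000003882, chr15:9435916-9459631, minus strand, Ccr7 is ENSMUSG00000037944, chr11:99005510-99016391, minus strand and S1pr1 is ENSMUSG00000045092, chr3:115413351-115417973, minus strand. Whether reads were counted by strand is not stated. The values of Bach2 and Foxo1 are therefore less certain, since 537 and 674 bp of their exons lie under exons of genes on the opposite strand (BC024582 and RP24-337A16.1). Exons of Foxp1 share 75 bp with Eif4e3 on the same strand.

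The 250 bases before the most upstream RefSeq start are shown for Bach2 and Foxp1, the 2 members whose patterns over the 6 groups were most alike. Capitals mark matches on either strand to the letters CTTTGA (TCF/LEF), CCCCACCC (KLF) or TGGAAA (NFAT). Both windows are given 5′ to 3′ on the strand of the gene, from RefSeq on GRCm38.p6, a later build than that of the counts. The Bach2 window is chr4:32417185-32417434, plus strand, and the Foxp1 window is chr6:99520994-99521243, minus strand.
Bach2: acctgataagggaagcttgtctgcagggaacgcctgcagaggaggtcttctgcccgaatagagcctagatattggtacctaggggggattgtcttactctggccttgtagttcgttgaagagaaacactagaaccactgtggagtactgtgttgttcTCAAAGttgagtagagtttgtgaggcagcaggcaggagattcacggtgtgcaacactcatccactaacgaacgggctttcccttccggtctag
Foxp1: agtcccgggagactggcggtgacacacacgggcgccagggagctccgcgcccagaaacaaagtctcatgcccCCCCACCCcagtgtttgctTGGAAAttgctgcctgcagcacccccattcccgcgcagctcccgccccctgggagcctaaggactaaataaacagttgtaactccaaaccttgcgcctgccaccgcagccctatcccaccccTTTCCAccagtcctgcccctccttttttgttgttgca
Bach2 held 1 TCF/LEF match, and Foxp1 held 1 KLF match and 2 NFAT matches. Over the 27025 gene starts of the same table, 14.1% of windows of this length held the TCF/LEF letters, 8.96% the KLF letters and 18.7% the NFAT letters. Neither window held GTAAACA (FOXO), TGANTCA (AP-1), CCGGAAGT (ETS) or the NF-kB motif, where N is any base. Windows were at hand for 7 of the 9 members, all but Ccr7 and S1pr1. Among the other 5, Lef1 held 1 KLF match and Foxo1 1 NFAT match, and Satb1, Tcf7 and Il7r held none of the 7 motifs. A match here describes letters and not a bound site.

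Total counts ran from 10758571 to 24119489 per library, and every PI library (14895843 or more) was deeper than every other library (13559974 or fewer). The lowest count of any member in any library was 263, for S1pr1 in NAg. Levels below are normalized counts, which are counts scaled by TMM (trimmed mean of M values) to a common library size. Of 10 T cell markers none was at 0 in any group, and they summed to 39821 to 41432 normalized counts in N0, 23799.9 to 24595 in NAg and 58747 to 65511 in NPI, and to 33266 to 39247 in T0, 26012 to 28857 in TAg and 64835 to 68512 in TPI. The 10 neutrophil markers summed to 76.4 to 187 normalized counts in N0 and 146 to 423 in NAg, against 1820.3 to 3197 in T0 and 2413 to 4435 in TAg. After PI they summed to 64.5 to 173 in NPI and 397 to 676 in TPI, and 3 of the 10 were at 0 in all NPI libraries and none in any other group. B cell markers summed to 383 to 2019.8 in N0 and 604 to 3001 in T0. The 8 erythroid markers summed to 42.8 to 194 in N0 and 246 to 2095 in T0. The 5 platelet markers summed to 190 to 732 in N0 and 70.5 to 86.3 in NPI. In T0 and TPI they summed to 362 to 373 and 98.0 to 109. The 5 CD8 and NK cell markers summed to 474 to 770 in N0 and 384 to 498 in NPI. In T0 and TPI they summed to 504 to 676 and 156 to 232. The 10 macrophage and dendritic cell markers overlapped, with 679 to 1043 in N0 and 575 to 804 in NPI. Reads of 4 Y-linked genes were high in all 6 PI libraries, in 2 of 3 T0 and in 1 of 3 TAg libraries and low in all N0 and NAg libraries, so the sex of the mice cannot be told apart from PI in naive cells. In RNA from whole cell populations, fewer cells of a type and less RNA per cell cannot be told apart.

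Scaling also bears on direction. Without TMM, on counts scaled by the library total alone (CPM, a scaling tried after the values had been seen), the median log2 fold change of all tested genes moved from 0 to -0.42 in NAg:N0, from -0.053 to -0.40 in TAg:T0, from -0.059 to -0.65 in NPI:N0 and from -0.10 to -0.92 in TPI:T0. It moved from 0.011 to 0.20 in TAg:NAg, from -0.038 to -0.15 in TPI:NPI and from -0.081 to 0.026 in T0:N0. All changes below are on the TMM scale and so relative to the typical gene, and a sign that turns on CPM is given beside the change.

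**Figure D1:**
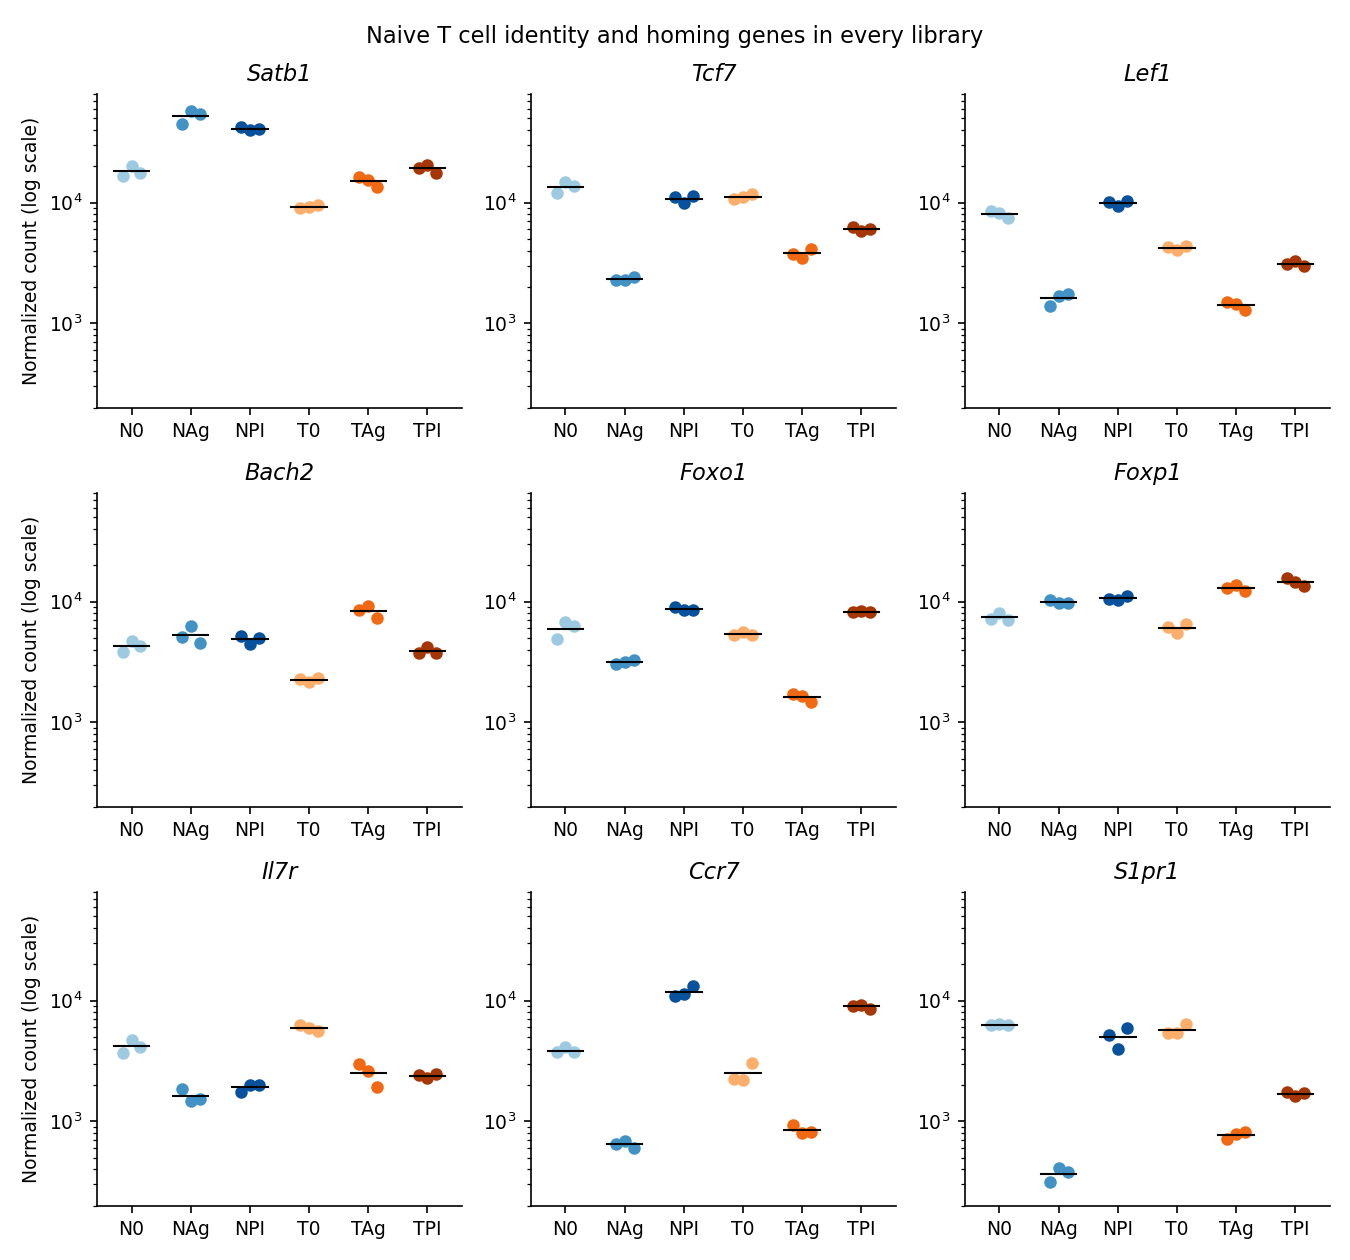
Normalized counts (TMM, log scale) of the 9 genes in each of the 18 libraries, by group; points are libraries and lines are means of 3. S1pr1 and Ccr7 span the widest range, 17.2-fold and 18.2-fold between their highest and lowest group means, and Foxp1 the narrowest, 2.40-fold.

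Among the transcription factors, Tcf7 was read at 11938, 14925 and 13672 normalized counts in the 3 N0 libraries and 10731, 11094 and 11781 in T0. After Ag it stood at 2300.0, 2298 and 2399 in NAg and 3765, 3446 and 4142 in TAg. After PI the values were 11192, 9822 and 11273 in NPI and 6261, 5859 and 6009 in TPI. Both Ag groups lay below every other library, with NAg lowest, and the only neighbours in the order of groups whose replicates overlapped were T0 and NPI. Lef1, its partner in the same family, gave 8433, 8177 and 7498 in N0 and 4254, 4021 and 4334 in T0. With Ag it came to 1381, 1673 and 1762 in NAg and 1486, 1447 and 1284 in TAg, and with PI to 10131, 9412 and 10234 in NPI and 3082, 3266 and 2984 in TPI. NPI was the highest group for Lef1, and NAg and TAg were the lowest and overlapped each other.

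Satb1, which encodes a chromatin organizer needed for T cell development, was read at 16579, 20261 and 17574 in N0 and 9014, 9158 and 9509 in T0. In NAg it reached 44356, 56879 and 53990.2, and in TAg 16185, 15254 and 13434. NPI gave 42475, 39926 and 40266 and TPI 19505, 20387 and 17674. NAg was highest and T0 lowest, and tolerized cells after PI overlapped only the unstimulated naive cells.

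Bach2 encodes a repressor that can occupy AP-1 sites and restrains effector differentiation. Its levels were 3844, 4734 and 4309 in N0, 2281, 2136 and 2343 in T0, 5053, 6226 and 4553 in NAg and 8529, 9161 and 7319 in TAg. NPI held 5181, 4441 and 5033 and TPI 3773, 4178 and 3732. TAg stood above and T0 below all other libraries, and the other 4 groups formed a chain in which each neighbour overlapped the next. Foxp1, a forkhead factor of T cell quiescence, gave 7113, 8109 and 7078 in N0, 6146, 5450.4 and 6514 in T0, 10257, 9737 and 9818 in NAg and 12986, 13636 and 12210.4 in TAg. It reached 10492, 10308 and 11043 in NPI and 15537, 14516 and 13473 in TPI. Every stimulated group was above both resting groups, and only TPI and TAg overlapped.

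Foxo1 was read at 4849.8, 6759.6 and 6214 in N0 and 5333, 5599.7 and 5313 in T0, groups that overlapped. Ag gave 3013, 3131 and 3281 in NAg and 1729, 1663 and 1466 in TAg, and PI gave 9079, 8472 and 8566 in NPI and 8137, 8315 and 8266 in TPI. The order was therefore PI, rest and Ag from high to low in both cell states, although on CPM the PI groups differed from rest by -0.025 and -0.20 on the log2 scale.

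Of the receptors, Il7r encodes the alpha chain of the IL-7 receptor, on which survival of naive and memory T cells depends. It gave 3654, 4714 and 4145 in N0 and 6248, 5944 and 5619 in T0, the highest group. Stimulated cells held 1853, 1486 and 1519 in NAg, 2983, 2585 and 1937 in TAg, 1761, 1994 and 1979 in NPI and 2436, 2291 and 2441 in TPI. Both resting groups were above all stimulated libraries. TAg overlapped both TPI and NPI, and NPI overlapped NAg.

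Ccr7 was read at 3728, 4084 and 3741 in N0 and 2233, 2199 and 3029.8 in T0. It fell to 646, 692 and 606 in NAg and 925, 800.0 and 815 in TAg, and stood at 10951, 11234 and 13132 in NPI and 9091, 9149 and 8579 in TPI. No neighbouring groups overlapped, and the order was NPI, TPI, N0, T0, TAg and NAg. S1pr1 gave 6310.0, 6339.9 and 6261 in N0, the smallest relative spread of any member and group, and 5388, 5406 and 6372 in T0. NAg had 315, 408 and 378 and TAg 714, 786 and 816, while NPI had 5163, 3977 and 5955 and TPI 1754, 1607 and 1707. N0, T0 and NPI formed a high set whose neighbours overlapped, and TPI, TAg and NAg followed below without overlap.

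Levels can be compared between genes only per length of exon. Per kb, Tcf7 was the most abundant member in N0, with 4843 ± 538 normalized counts per kb (SD, n = 3). S1pr1, Ccr7 and Satb1 followed with 2081 ± 13.1, 1947 ± 102 and 1935 ± 203, and the S1pr1 libraries were all above those of Ccr7, while Satb1 overlapped both. Bach2 was the least abundant in N0, with 412 ± 42.7, and Foxp1 was next with 623 ± 49.1. In NAg the order was another one, with Satb1 highest at 5519.7 ± 699.5 per kb and S1pr1 lowest at 121 ± 15.6. In NPI the highest was Ccr7 at 5952 ± 599.7.

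The first comparison asks what tolerization does to these genes in the absence of stimulation (T0:N0). Satb1, Lef1, Bach2 and Ccr7 were lower in tolerized cells, by between 1.55-fold and 1.97-fold, Foxp1 and Tcf7 were lower by less, and Il7r was higher. Mean levels went from 18138 ± 1905 to 9227 ± 255 normalized counts for Satb1 (SD, n = 3), from 8036 ± 483 to 4203 ± 163 for Lef1 and from 4296 ± 445 to 2253 ± 106 for Bach2. Il7r went from 4171 ± 531 to 5937 ± 314. Foxo1 and S1pr1 did not pass the test.

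By edgeR's quasi-likelihood F test with Benjamini-Hochberg adjustment over all 17240 genes, 6 of the 9 were called lower and 1 higher at an adjusted p under 0.05, where 12% of all tested genes were called lower and 8.42% higher. None of the 9 changed by 2-fold or more, against 5.06% of all tested genes that rose and 1.13% that fell by as much. Satb1 had the largest change of the 9, a log2 fold change of -0.98 ± 0.094 with an adjusted p of 2.24e-07, and Lef1 (log2 fold change -0.93 ± 0.081, adjusted p = 5.67e-08) and Bach2 (log2 fold change -0.93 ± 0.11, adjusted p = 4.08e-06) were close behind. Ccr7 had a log2 fold change of -0.63 ± 0.10 with an adjusted p of 1.23e-04. For Il7r the value was 0.51 ± 0.13 with an adjusted p of 0.0083, for Foxp1 -0.30 ± 0.078 with an adjusted p of 0.00794 and for Tcf7 -0.27 ± 0.082 with an adjusted p of 0.021. Foxo1 (log2 fold change -0.13 ± 0.088, adjusted p = 0.31) and S1pr1 (log2 fold change -0.14 ± 0.11, adjusted p = 0.416) had overlapping replicates. The median of the members was -0.30, beside -0.081 over all tested genes. Of the 10 T cell markers, 4 were called lower and 1 higher in T0:N0 (median -0.22). Their part in the lower values of the members was not tested.

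Markers of other cells also differed between T0 and N0, and whether they bear on these differences was not tested within groups. With scores of the erythroid and myeloid markers as covariates, 0 of the 9 were called in T0:N0 and 77 genes were called in all, and the log2 fold changes became -0.69 for Lef1 (adjusted p = 0.0872), -0.54 for Satb1 (0.227), -0.55 for Ccr7 (0.392), -0.52 for Bach2 (0.321) and 0.42 for Il7r (0.693). In T0:N0, 10 of 10 neutrophil and 3 of 8 erythroid markers were called higher. Every T0 library had higher sums of both the neutrophil and the erythroid markers than every N0 library, so tolerization and these markers cannot be told apart. The Tcf7 call was lost without N0 replicate 2 or 3 or T0 replicate 1 or 2 (adjusted p = 0.124, 0.0544, 0.078 and 0.0532), and that of Foxp1 without N0 replicate 2 or T0 replicate 2 (0.0513 and 0.0504). Without N0 replicate 1, Foxo1 was called lower (-0.27, adjusted p = 0.0139). With Y-linked reads as a covariate, Tcf7 (0.0527) and Foxp1 (0.152) were not called, and the other 5 calls held. Both were also lost on CPM (0.151 and 0.0533) and with only T0 and N0 in the fit (0.137 and 0.0742).

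The second question is the response to Ag, with which all 9 genes were called in both cell states. S1pr1 fell furthest, 17.2-fold in naive and 7.41-fold in tolerized cells. Ccr7, Tcf7 and Lef1 fell together with it, by between 5-fold and 5.94-fold in naive and by 2.94-fold to 2.99-fold in tolerized cells, and Il7r and Foxo1 also fell. Satb1 and Bach2 went the other way: Satb1 rose 2.85-fold in naive cells and Bach2 3.7-fold in tolerized cells. Foxp1 rose in both states, except that on CPM its change in naive cells was 0.017 and was not called. Most T cell markers were also lower with Ag, with 8 of 10 called lower and 2 higher in NAg:N0 (median -1.04) and 6 and 1 in TAg:T0 (median -0.41), and their part in the falls of the members was not tested.

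**Figure D2:**
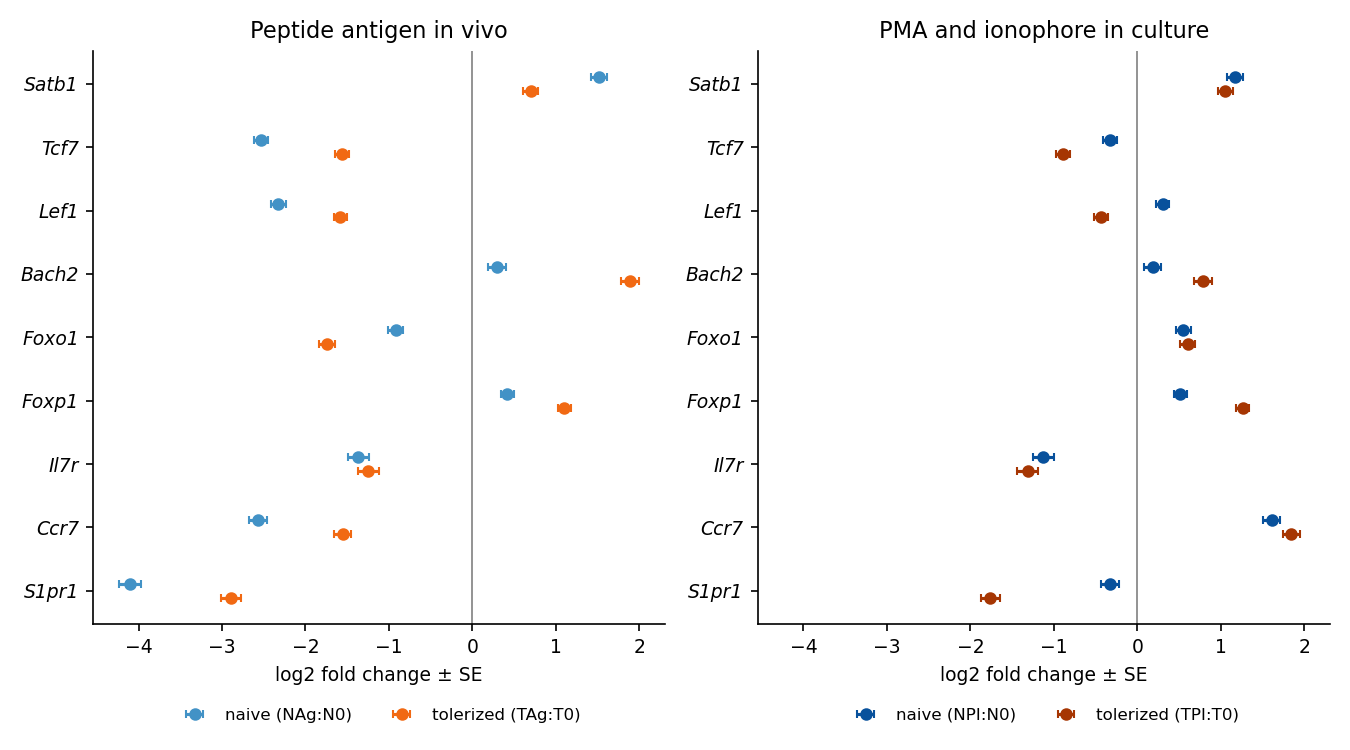
Log2 fold changes of the 9 genes with Ag (left) and with PI (right) in naive and tolerized cells, on the TMM scale; bars are standard errors of the edgeR model. Ccr7 lies left of 0 with Ag and right of 0 with PI in both cell states, and Satb1 lies right of 0 in all 4 comparisons; Bach2 in NAg:N0, NPI:N0 and TPI:T0, Foxo1 in NPI:N0 and TPI:T0, and Lef1 and Foxp1 in NPI:N0 change sign on CPM.

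In NAg:N0, 6 of the 9 were called lower and 3 higher, where 33.4% of all tested genes were lower and 32.1% higher. At 2-fold or more, 5 were lower and 1 higher, beside 22.5% and 19.5% of all tested genes. S1pr1 had a log2 fold change of -4.10 ± 0.13 with an adjusted p of 2.09e-16, Ccr7 -2.57 ± 0.11 with an adjusted p of 1.34e-15 and Tcf7 -2.53 ± 0.087 with an adjusted p of 4.82e-18. Lef1 was at -2.32 ± 0.085, Il7r at -1.37 ± 0.13 and Foxo1 at -0.92 ± 0.089, with adjusted p-values of 1.42e-17, 3.24e-08 and 1.56e-09. Satb1 rose with a log2 fold change of 1.51 ± 0.095 with an adjusted p of 4.79e-13, and Foxp1 with 0.42 ± 0.078 with an adjusted p of 4.34e-05. Bach2 was called higher (log2 fold change 0.30 ± 0.10, adjusted p = 0.0169), but NAg and N0 overlapped, its sign turned on CPM (-0.11), and the call was lost without N0 replicate 1 or 3 or NAg replicate 2 (adjusted p = 0.187, 0.0815 and 0.166) and with only NAg and N0 in the fit (0.25, adjusted p = 0.108). The median over the members was -1.37, against 0 over all tested genes.

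In TAg:T0 the same 6 genes were called lower and the same 3 higher, beside 29.8% and 29.9% of all tested genes, and 6 and 2 of them passed 2-fold (17.2% and 15.4%). S1pr1 gave a log2 fold change of -2.89 ± 0.12 with an adjusted p of 3.06e-14. The values were -1.74 ± 0.091 for Foxo1, -1.58 ± 0.083 for Lef1, -1.57 ± 0.084 for Tcf7, -1.55 ± 0.10 for Ccr7 and -1.25 ± 0.13 for Il7r, and the largest adjusted p among these 5 was 1.19e-07. Bach2 rose from 2253 ± 106 to 8336 ± 936 normalized counts (log2 fold change 1.89 ± 0.11, adjusted p = 1.33e-12), Foxp1 from 6037 ± 540.2 to 12944 ± 714 (log2 fold change 1.10 ± 0.079, adjusted p = 8.59e-12) and Satb1 from 9227 ± 255 to 14958 ± 1399 (log2 fold change 0.70 ± 0.094, adjusted p = 5.40e-07). All 9 calls held in every alternative tried, with Satb1 at 0.37 on CPM. The members' median was -1.55 and that of all tested genes -0.053.

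Whether both states answered Ag alike was tested as the difference of the responses (TAg:T0 minus NAg:N0), and 8 of the 9 differed, 6 with a higher and 2 with a lower value in tolerized cells, where 14.6% and 7.09% of all tested genes were called. Differences of 2-fold or more were 3 higher and 0 lower among the 9, beside 3.36% and 3.08% of all tested genes. Bach2 differed most (log2 fold change 1.59 ± 0.15, adjusted p = 1.66e-07), and it was 3.7-fold higher with Ag in tolerized and 1.23-fold in naive cells. The falls of S1pr1, Ccr7, Tcf7 and Lef1 were smaller in tolerized cells by 1.21 ± 0.17, 1.02 ± 0.15, 0.97 ± 0.12 and 0.74 ± 0.12 on the log2 scale, with adjusted p-values of 2.79e-05, 2.84e-05, 2.05e-06 and 4.63e-05. Foxo1 fell further in tolerized cells (-0.82 ± 0.13, adjusted p = 3.75e-05), and Satb1 rose less (-0.82 ± 0.13, adjusted p = 7.39e-05). Foxp1 rose more (0.68 ± 0.11, adjusted p = 7.21e-05). For Il7r the difference was 0.12 ± 0.18 with an adjusted p of 0.716 and changed sign without TAg replicate 1 (-0.040). The other 8 calls held in every alternative tried. The same contrast was not particular to the members. Of 19 further tested genes of naive T cells, listed below, 10 were called higher and 1 lower (median 0.87). Of the 10 T cell markers 6 were called higher and 0 lower (median 0.42).

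The same question was asked of PI, which bypasses the TCR. Ccr7, which Ag lowered, was higher with PI, 3.06-fold in naive and 3.59-fold in tolerized cells. Satb1 rose again and Il7r fell again in both states. In naive cells S1pr1 and Tcf7 kept 5032 ± 995 and 10762 ± 816 normalized counts with PI, beside 367 ± 47.2 and 2332 ± 57.6 with Ag. The PI and Ag comparisons share their resting libraries, so their values are only set side by side.

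In NPI:N0, 5 members were called higher and 3 lower, where 28.6% of all tested genes were higher and 32.7% lower, and 2 and 1 passed 2-fold (15.7% and 16%). On CPM the split was 2 higher and 5 lower, where 15.6% of all tested genes were higher and 52.8% lower. Ccr7 had a log2 fold change of 1.61 ± 0.10 with an adjusted p of 4.83e-12, Satb1 1.17 ± 0.094 with an adjusted p of 1.19e-10 and Il7r -1.13 ± 0.13 with an adjusted p of 5.44e-07. Tcf7 (-0.33 ± 0.082, adjusted p = 0.00124) and S1pr1 (-0.32 ± 0.11, adjusted p = 0.0151) were lower, but the S1pr1 call was lost without NPI replicate 2 (-0.18, adjusted p = 0.102), with only NPI and N0 in the fit (0.0724) and with Y-linked reads as a covariate (0.233), and S1pr1 stood at -0.69 with the erythroid and myeloid scores. On CPM the values were 1.03 for Ccr7, 0.60 for Satb1, -1.70 for Il7r, -0.91 for Tcf7 and -0.90 for S1pr1. Foxo1 (0.55 ± 0.088, adjusted p = 6.95e-06), Foxp1 (0.51 ± 0.078, 3.63e-06) and Lef1 (0.30 ± 0.080, 0.00191) were called higher, and on CPM their values were -0.025, -0.064 and -0.27, below 0 and above the shift of the median gene. Bach2 (log2 fold change 0.19 ± 0.10, adjusted p = 0.132) did not pass the test, was called with Y-linked reads as a covariate (0.37, 0.0409), with only NPI and N0 in the fit (0.23, 0.0225) and with a B cell marker score (0.26, 0.0175), and turned to -0.074 with the erythroid and myeloid scores and to -0.39 on CPM. With the erythroid and myeloid scores Lef1 was no longer called (0.14, adjusted p = 0.502). The fit with Y-linked reads cannot separate sex from PI here, since these reads were high in every NPI and low in every N0 library. Its Y-linked term came only from T0 and TAg, the groups with both high and low libraries, so no conclusion is drawn from it.

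In TPI:T0, 5 members were called higher (32% of all tested genes) and 4 lower (36.3%), of which 3 and 2 passed 2-fold (18.9% and 21.7%). On CPM 3 were higher and 5 lower, where 15.5% of all tested genes were higher and 59.7% lower. Ccr7 gave a log2 fold change of 1.85 ± 0.10 with an adjusted p of 3.12e-13, Foxp1 1.27 ± 0.079 with an adjusted p of 6.81e-13 and Satb1 1.06 ± 0.094 with an adjusted p of 4.79e-10. On CPM they stood at 1.05, 0.47 and 0.26, and Il7r, Tcf7 and Lef1 at -2.12, -1.69 and -1.23. With the erythroid and myeloid scores Satb1 was at 0.60 and Lef1 at -0.70, both still called. S1pr1 fell 3.39-fold (log2 fold change -1.76 ± 0.11, adjusted p = 3.21e-11), Il7r 2.48-fold (-1.31 ± 0.13) and Tcf7 1.85-fold (-0.89 ± 0.082), and Lef1 was lower by less (-0.43 ± 0.081), with adjusted p-values of 5.26e-08, 9.25e-10 and 4.26e-05 for the last 3. Bach2 (0.79 ± 0.11, adjusted p = 9.84e-07) and Foxo1 (0.61 ± 0.088, 1.44e-06) were called higher, but stood at -0.0098 and -0.20 on CPM, and with the erythroid and myeloid scores their adjusted p-values were 0.24 and 0.241. The summed neutrophil markers, which enter the myeloid score, did not overlap between TPI and T0, so that fit cannot tell these markers and PI apart.

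**Figure D3:**
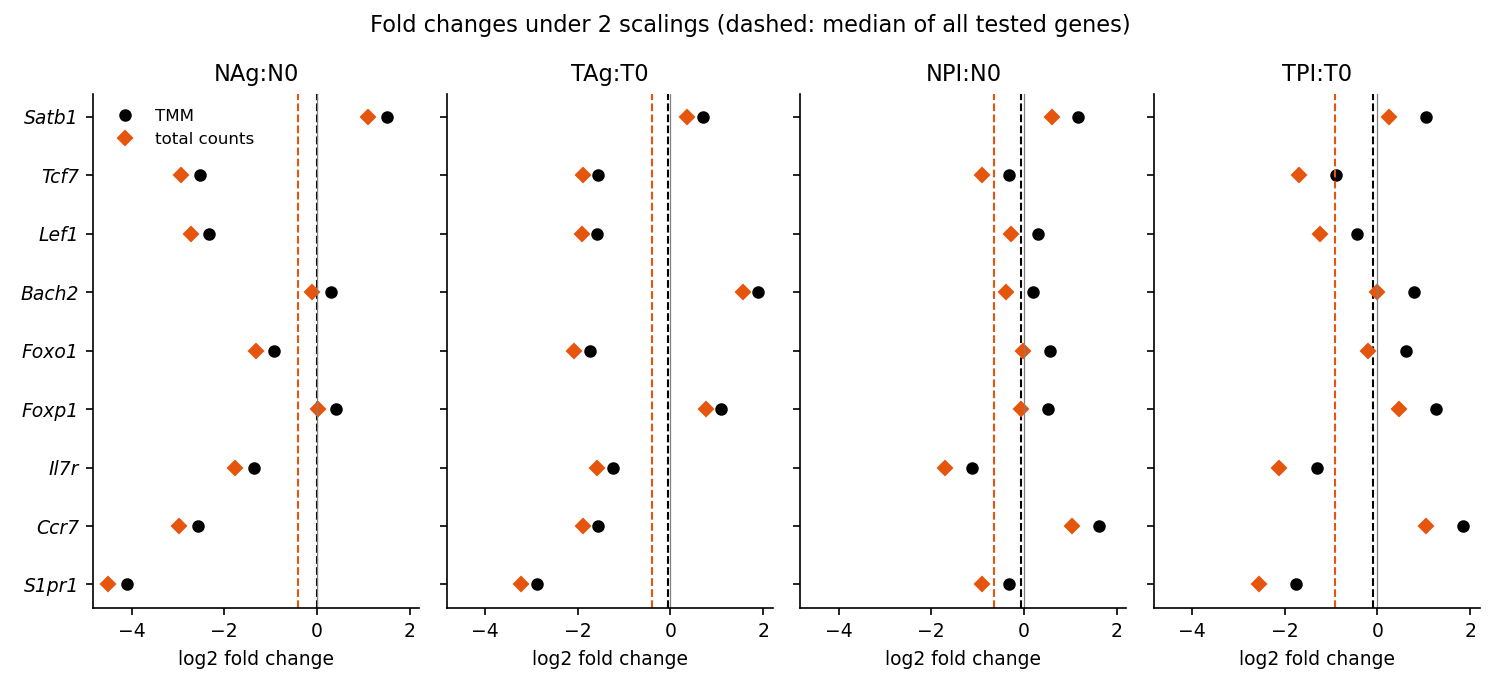
Log2 fold changes of the 9 genes with Ag and PI on the TMM scale (circles) and on CPM (diamonds, named total counts in the key); dashed lines are the medians of all tested genes under each scaling. The distance of each gene from the median line is nearly the same under both, while the position against 0 changes for Bach2, Foxo1, Foxp1 and Lef1.

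The difference between the PI responses (TPI:T0 minus NPI:N0) was called for 5 of the 9, 3 lower and 2 higher, where 7.52% and 12.7% of all tested genes were called. Only S1pr1 passed 2-fold, as did 2.1% of all tested genes in the lower and 1.97% in the higher direction. S1pr1 differed most, with a log2 fold change of -1.44 ± 0.16 with an adjusted p of 2.26e-06. It kept 5032 ± 995 normalized counts in NPI but only 1689 ± 75.1 in TPI. Lef1 (-0.74 ± 0.11, adjusted p = 4.16e-05) and Tcf7 (-0.56 ± 0.12, 0.001) also lay lower, opposite in sign to their differences with Ag. Foxp1 (0.75 ± 0.11, 2.43e-05) and Bach2 (0.60 ± 0.15, 0.0057) lay higher, and the Bach2 call was lost on CPM (0.38, 0.063). Satb1 (-0.12 ± 0.13), Foxo1 (0.054 ± 0.12), Il7r (-0.19 ± 0.18) and Ccr7 (0.23 ± 0.14) did not pass the test, with adjusted p-values of 0.601, 0.821, 0.528 and 0.275. Ccr7 was called without T0 replicate 3 (0.42, 0.00663), and Satb1 on CPM (-0.34, 0.0397).

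Tolerized and naive cells were also compared after stimulation. After Ag, Satb1 and Foxo1 were lower in tolerized cells, 3.46-fold and 1.94-fold, and S1pr1 (2.1-fold), Tcf7 and Bach2 were higher. After PI, Lef1, S1pr1, Satb1 and Tcf7 were lower in tolerized cells, by 3.19-fold, 2.98-fold, 2.13-fold and 1.78-fold. Satb1 was thus lower in tolerized cells in all 3 conditions, and Tcf7, Ccr7, Bach2 and S1pr1 lay lower at rest or after PI and higher after Ag.

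**Figure D4:**
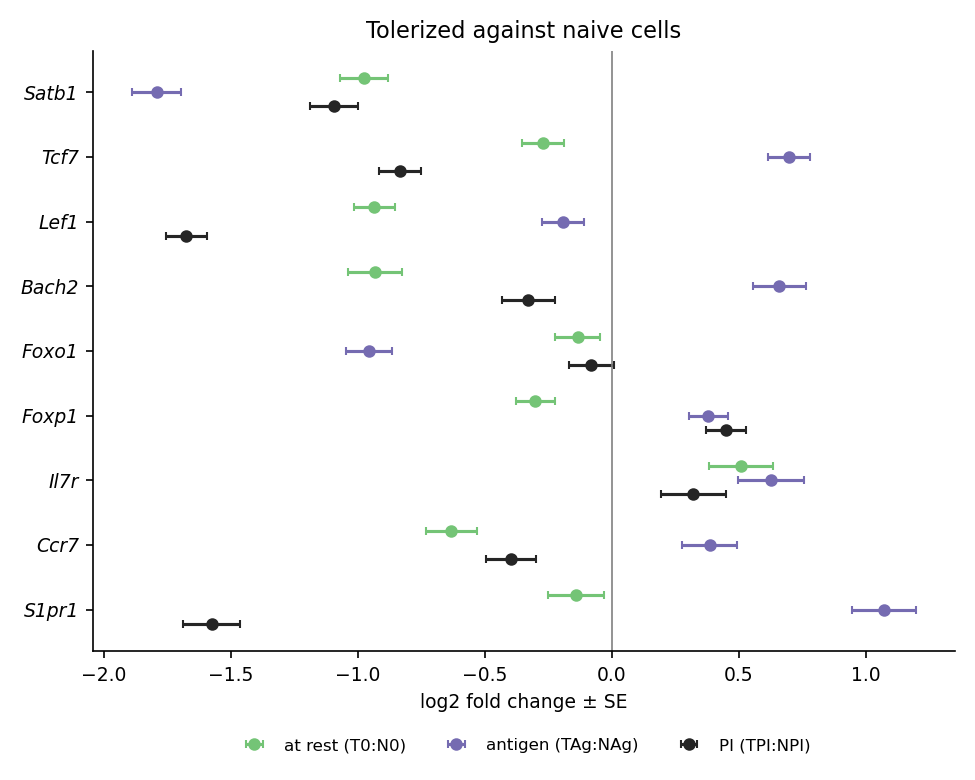
Log2 fold changes of tolerized against naive cells for the 9 genes at rest, after Ag and after PI (TMM scale); bars are standard errors of the edgeR model. Satb1 lies left of 0 in all 3, and S1pr1 lies at 1.07 after Ag and -1.57 after PI.

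In TAg:NAg, 6 members were called higher and 2 lower, beside 20.9% and 18.5% of all tested genes, and 1 each passed 2-fold (6.58% and 4.21%). Satb1 had a log2 fold change of -1.79 ± 0.096 with an adjusted p of 1.18e-12, Foxo1 -0.96 ± 0.090 with an adjusted p of 1.65e-08 and S1pr1 1.07 ± 0.13 with an adjusted p of 1.55e-06. Tcf7 (0.70 ± 0.084), Bach2 (0.66 ± 0.10), Il7r (0.63 ± 0.13), Ccr7 (0.39 ± 0.11) and Foxp1 (0.38 ± 0.078) were higher, with adjusted p-values between 5.73e-07 and 0.00662. With the erythroid and myeloid scores Il7r (0.0627) and Ccr7 (0.0774) were no longer called. The summed neutrophil markers, which enter the myeloid score, did not overlap between TAg and NAg. That fit therefore cannot tell these markers and tolerization apart, and no conclusion is drawn from the lost calls. Lef1 (log2 fold change -0.19 ± 0.083, adjusted p = 0.0706) did not pass, and was called lower by DESeq2 (0.0274) and without NAg replicate 1 (0.0063) or TAg replicate 1 (0.0488).

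In TPI:NPI, 6 were called lower (19.7% of all tested genes) and 1 higher (18.2%), and 3 of the lower and 0 of the higher ones passed 2-fold (4.07% and 5.27%). Lef1 led with a log2 fold change of -1.67 ± 0.082 with an adjusted p of 6.93e-13, followed by S1pr1 (log2 fold change -1.57 ± 0.11, adjusted p = 2.21e-09), Satb1 (log2 fold change -1.09 ± 0.094, adjusted p = 3.20e-09) and Tcf7 (log2 fold change -0.83 ± 0.082, adjusted p = 2.68e-08). Foxp1 was higher (log2 fold change 0.45 ± 0.078, adjusted p = 5.71e-05). Ccr7 was lower (-0.40 ± 0.099, adjusted p = 0.00262) but not with the erythroid and myeloid scores (0.15). Bach2 was lower (-0.33 ± 0.10, adjusted p = 0.0168), a call lost without NPI replicate 1 or 3 or TPI replicate 1 or 3 (adjusted p from 0.0588 to 0.0736) and with the erythroid and myeloid scores (-0.070, 0.771). The summed neutrophil markers did not overlap between TPI and NPI either, so the fit with these scores cannot tell the markers and tolerization apart. Foxo1 (log2 fold change -0.079 ± 0.087, adjusted p = 0.525) and Il7r (log2 fold change 0.32 ± 0.13, adjusted p = 0.0564) did not pass. Il7r was called higher in 4 of the 9 alternatives that kept every library, among them DESeq2 (0.018).

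Genes that work with the members were measured too. Cd69, whose product removes S1PR1 from the surface, stood at 722 ± 141 normalized counts in N0, 22245 ± 2793 in NAg and 60732 ± 2736 in NPI. In tolerized cells it stood at 782 ± 133, 7110.1 ± 1013 and 47365 ± 4306. Cd69 RNA was thus highest with PI, where S1pr1 RNA was higher than with Ag in both states. Klf2, a factor that drives S1pr1 transcription, fell with Ag (-2.78 ± 0.32 in naive and -1.50 ± 0.30 in tolerized cells) and rose with PI in naive cells (1.48 ± 0.29), while its PI change in tolerized cells was 0.0048 ± 0.29 (adjusted p = 0.989) on the TMM scale and -0.78 on CPM, where it was called lower (adjusted p = 0.0198). The difference between the PI responses of Klf2 was -1.48 ± 0.41 (adjusted p = 0.0225).

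Il2rg, the common chain that pairs with the product of Il7r, rose where Il7r fell, by 0.64 ± 0.070, 0.85 ± 0.071, 1.07 ± 0.070 and 1.62 ± 0.071 in NAg:N0, TAg:T0, NPI:N0 and TPI:T0, and in T0:N0 it was lower (log2 fold change -0.31 ± 0.071, adjusted p = 0.00263) where Il7r was higher. Cd44, a marker of Ag-experienced T cells, was higher in T0 than in N0 (log2 fold change 0.54 ± 0.11, adjusted p = 0.00135), and in TPI than in NPI (1.57 ± 0.11). Neither Il2rg nor Cd44 was read out with the erythroid and myeloid scores as covariates. Of the 14 ligands, signalling proteins and other partners of the receptors, 11 were tested. They numbered 6 higher and 5 lower in NAg:N0, where 32.1% and 33.4% of all tested genes were called. In T0:N0 they numbered 1 higher and 2 lower, near the shares of 8.42% and 12% of all tested genes. On CPM they numbered 2 higher and 0 lower (10.2% and 5.36% of all tested genes), so the lower call of Il2rg in T0:N0 was lost on that scale.

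A list of 20 further genes known from naive T cells, of which 19 were tested, gives the setting. In NAg:N0, 16 of the 19 were called lower and 1 higher, with a median log2 fold change of -2.60, where 33.4% of all tested genes were lower and 32.1% higher. In TAg:T0 the counts were 14 and 2 with a median of -1.50 (all tested genes 29.8% and 29.9%), and on CPM, with 40.8% and 21.8% of all tested genes, 16 and 0. The largest falls were those of Klf3, a relative of Klf2 (-4.69 ± 0.18 and -4.19 ± 0.17), and of Rapgef4, an exchange factor for RAP GTPases (-4.04 ± 0.15 and -3.08 ± 0.15). With PI the list was mixed and moved with the scaling, with 4 higher and 7 lower in NPI:N0 (3 and 14 on CPM) and 3 and 10 in TPI:T0 (1 and 18). On the TMM scale 28.6% and 32.7% of all tested genes were higher and lower in NPI:N0, and 32% and 36.3% in TPI:T0. On CPM the shares were 15.6% and 52.8%, and 15.5% and 59.7%. Cxcr4, another chemokine receptor, was like Ccr7 in falling with Ag (-3.61 ± 0.54 and -3.26 ± 0.48) and rising with PI (2.93 ± 0.43 and 1.81 ± 0.41). Dapl1 fell with PI in both (-2.00 ± 0.19 and -2.65 ± 0.19).

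In T0:N0, 8 of the 19 were lower and 2 higher (12% and 8.42% of all tested genes), led by Ramp1 (-1.29 ± 0.19), Als2cl (-0.92 ± 0.17) and Rapgef4 (-0.75 ± 0.12) among the lower. Klf2 (-0.0035 ± 0.29, adjusted p = 1, and 0.092 on CPM) did not pass, as with S1pr1 and Foxo1. Myb had the largest change of the 19, 2.35 ± 0.26, and whether T cells were its source was not tested. Of 16 genes of activated and memory T cells, 11 were higher and 0 lower in T0:N0, against the same background shares, among them Cxcr3 (2.16 ± 0.32) and Tbx21 (1.78 ± 0.26). In NAg:N0 10 of them rose and 0 fell, led by Il2ra (6.05 ± 0.26), and in TAg:T0 10 rose and 2 fell, where 32.1% and 29.9% of all tested genes rose. With the erythroid and myeloid scores, 77 genes in all were called in T0:N0. The genes of these lists were not read out in that fit, so their T0:N0 calls carry the same limit as those of the members.

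Of 13 paralogs of the members, 12 were tested, and 5 were called higher and 4 lower in NAg:N0, near the shares of all tested genes (32.1% and 33.4%). S1pr4, a relative of S1pr1 in lymphocytes, fell with Ag like S1pr1 (-4.32 ± 0.19 and -3.46 ± 0.18), and so did Foxo4 like Foxo1 (-3.41 ± 0.24 and -2.31 ± 0.22). S1pr3 rose with PI (3.93 ± 0.58 and 3.54 ± 0.54) from 12.6 ± 14.4 and 18.8 ± 10.8 normalized counts at rest. Bach1 rose in all 4, also with Ag in naive cells, by 2.06 ± 0.090, where Bach2 changed by 0.30 ± 0.10. Foxp4 rose with Ag like Foxp1 (1.78 ± 0.069 and 2.17 ± 0.069). In T0:N0, Foxp3, the factor of regulatory T cells, was higher (log2 fold change 1.45 ± 0.43, adjusted p = 0.0336) and Bach1 lower (-0.44 ± 0.090). These 2 genes were not read out with the erythroid and myeloid scores as covariates.

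Likeness of pattern was measured as the root mean square difference of centred log2 group means over the 6 groups, among 8981 genes with a mean normalized count of at least 100. Within the members, Bach2 and Foxp1 (0.424) and Tcf7 and Lef1 (0.467) were closest, and Satb1 and S1pr1 (2.07) were farthest apart. The nearest genes were Evi5l (0.0498) and Nipsnap1 (0.0597) for Tcf7, Arhgef11 (0.191) and Kcnmb4 (0.213) for Lef1 and Tle1 (0.118) and U2 (0.212) for Satb1. They were Manf (0.258) and Atp10a (0.268) for Bach2, Klf13 (0.163) and Adck3 (0.185) for Foxo1 and Lrch1 (0.0802) and Arcn1 (0.101) for Foxp1. For the receptors they were Serhl (0.117) and Tmsb4x (0.142) for Il7r, Tmem66 (0.250) and Lpin1 (0.250) for Ccr7 and Acss2 (0.153) and Tpcn1 (0.194) for S1pr1. U2 is a gene of a repeated RNA family, so its counts are uncertain.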

How the data were processed

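RNA-seq was measured in 18 libraries. The authors aligned paired-end reads of rRNA-depleted RNA to mm9 with TopHat2 2.1.1 and counted them per Ensembl gene with HTSeq 0.9.1, and the deposited values are raw counts per gene and library. Strand use and overlap mode are not given in the sources used here. DESeq2 1.18 and edgeR 3.24 were the authors' own test tools, per their processing notes.

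Here the counts were analyzed with R 4.3.3 and edgeR 4.0.16, with DESeq2 1.42.0 as an alternative. Groups come from the treatment label. Symbols and positions were taken from GENCODE vM1 on the same build, for 37205 of 37991 identifiers. Of 24647 genes with a read, the 17240 whose mean normalized count reached 3 in any group were kept. TMM scaling was followed by a single model of all 18 libraries in which every group had its own mean, and each contrast used the robust quasi-likelihood F test. Adjusted p-values are Benjamini-Hochberg values over all tested genes. A gene was called at an adjusted p under 0.05, and a further count asks for a fold change of at least 2. Errors are standard errors for log2 fold changes and SDs (n = 3) for levels. Replicates are separate samples by their labels, and whether each is a single mouse or a pool is not stated. Pipeline code was tested on simulated counts. Of 192 changes of 1 on the log2 scale simulated in T0:N0, 99 were recovered, with 8 false calls. In NAg:N0, where 0 were simulated, there were 0 false calls.

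The 9 members, the related gene lists and the tests were chosen with earlier results of these data known. Genes named are the 9 members, Klf2, Il2rg, Cd69 and Cd44, up to 4 genes with the largest called changes per comparison in each related list, and the 2 genes nearest in pattern to each member, except for a gene that is not reported here. Alternatives were DESeq2, other scalings, no filter, only the groups compared, a replicate block, marker and Y-linked covariates, and each library left out; a B cell covariate and CPM were added after the data had been seen.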

Additional observations from a re-analysis of the deposited data

Results flagged for a closer look

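The 13 values here are differences between the responses of tolerized and naive cells, on the log2 scale, that passed edgeR's test of the difference itself. With Ag (TAg:T0 minus NAg:N0), Bach2 (1.59), S1pr1 (1.21), Ccr7 (1.02), Tcf7 (0.97), Lef1 (0.74) and Foxp1 (0.68) lay higher in tolerized cells, and Satb1 (-0.82) and Foxo1 (-0.82) lay lower. With PI (TPI:T0 minus NPI:N0), S1pr1 (-1.44), Lef1 (-0.74) and Tcf7 (-0.56) lay lower, and Foxp1 (0.75) and Bach2 (0.60) higher. For S1pr1, Lef1 and Tcf7 the difference with Ag was positive and that with PI negative; the contrast between these 2 differences was not tested.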

How the results depend on the processing

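Of the 81 comparisons of a member, 51 kept call and direction in every alternative. Counts of members called that moved by more than 1.5 times were the following. Higher in TPI:NPI became 2 with DESeq2, with its size factors in edgeR, with only the groups compared and with Y-linked reads as a covariate. With erythroid and myeloid scores, 0 were called in T0:N0 in either direction and 3 higher in TPI:T0. On CPM, which like a B cell marker covariate was chosen after seeing the data, 1 was higher in NAg:N0, 2 were higher and 5 lower in NPI:N0, 3 were higher in TPI:T0, and 1 was higher in the PI difference. Smaller changes, by at most 2 members, were found in 17 further counts over all alternatives that kept every library and in 16 with 1 library left out.

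Signs turned on CPM for Bach2 (-0.11 in NAg:N0, -0.39 in NPI:N0, -0.0098 in TPI:T0), Lef1 (-0.27 in NPI:N0), Foxp1 (-0.064 in NPI:N0) and Foxo1 (-0.025 in NPI:N0, -0.20 in TPI:T0 and -0.17 in the PI difference). With erythroid and myeloid scores, Foxo1 turned to 0.14 and S1pr1 to 0.32 in T0:N0, Bach2 to -0.074 in NPI:N0, and Foxo1 to 0.098 in TPI:NPI and -0.040 in the PI difference. That Foxo1 difference, near 0 throughout, was also -0.032 with only the groups compared, -9.98e-05 with Y-linked reads and -0.030 without N0 replicate 2 (-0.030 to 0.20 over the libraries left out in turn). The Il7r Ag difference was -0.040 without TAg replicate 1 (-0.040 to 0.27). The cause of these changes was not tested. The fit with Y-linked reads cannot separate sex from PI in the naive cells that enter the PI difference.

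Leaving out 1 library at a time kept call and direction in 574 of 594 values, with 14 calls lost, 4 gained and 2 signs turned. Replicate numbers did not pair the samples: of 45 correlations of deviations between same-numbered libraries, 5 were over 0.1, and they ran from -0.23 to 0.14. With the replicate number as a block, all 81 values kept call and direction, and Bach2 in NAg:N0 was 0.29 (adjusted p = 0.0147); calls over all genes in T0:N0 went from 3519 to 3421. With the erythroid and myeloid scores they were 77. With 3 libraries a group, a change that misses the threshold is not shown to be absent.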
